A study of Sus scrofa with 28 samples.

Results

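The caudal lobe of the left lung was compared between swine that had inhaled a medium dose and swine that had inhaled a low dose of HD vapor. HD is sulfur mustard, a bifunctional alkylating agent. The comparison rests on 6 of the 28 arrays in the series, chosen by their labels for lobe and exposure, with 1 array per animal. The medium group was made up of animals 34, 41 and 42, which received 100 µg/kg, and the low group of animals 31, 32 and 33, which received 60 µg/kg. The caudal lobes of 3 animals that had breathed air (28, 29 and 44) gave the unexposed level. The animals were female, were fasted, premedicated and put under inhalational anesthesia, and both doses were inhaled through an airway tube over 10 min with the animal on its back. Tissue was taken at 12 h. Medium animal 39 contributes apical and median lobe arrays to the series but no caudal array, and animal 41 contributes no apical array. The labels name no breed, no litter and no array batch, and the doses are those inhaled, not those that reached this lobe. Each array reads the RNA of a piece of whole lobe, so fewer cells of a type and less RNA per cell cannot be told apart.

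Sulfur mustard reacts with DNA, RNA and proteins and is best known in the lung for injuring the conducting airways, whose lining holds ciliated, secretory and basal cells. Alkylated DNA activates p53 and other damage signals, which raise cell cycle inhibitors such as CDKN1A and the GADD45 genes. Injured epithelium also releases chemokines that draw in neutrophils, and the stress of injury raises glucocorticoids, which act through a nuclear receptor to induce genes such as FKBP5 and TSC22D3.

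The arrays carried 1 biotin-labelled sample each, and the deposited unit was signal intensity on a linear scale. The signals quoted are on the quantile-normalized scale. Differences are medium minus low in log2(signal + 16), in which the added 16 understates the change of dim genes, and are given with their standard error from limma. Adjusted p-values cover 23999 probe sets. The brightest of a gene's probe sets stands for the gene. Correlation of log2(signal + 16) over the 23999 probe sets of the arrays ranged from 0.9670 to 0.9859 between the 9 caudal arrays. Animal 34 stood apart from the other medium animals: its array correlated at 0.9804 to 0.9840 with the low arrays but at 0.9712 to 0.9764 with those of animals 41 and 42, which correlated at 0.9840 with each other. The labels put it in the medium group, and whether that array carries the right label was not tested. The log2 ratio of 3′ to 5′ signal, averaged over actin and GAPDH, grows as RNA breaks down and was 0.89 ± 0.26 in medium and 0.92 ± 0.38 in low arrays (SD, n = 3 each; exact permutation test over 20 splits, two-sided p = 0.9, smallest possible 0.1).

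No single gene passed the test between the doses. Of 23999 probe sets, limma called 0 (0%) at an adjusted p under 0.05, and the lowest adjusted p was 0.181. At an unadjusted p under 0.05 there were 2390 probe sets (9.96%), of which 1021 (4.25%) were higher and 1369 (5.7%) lower in the medium lobes. The medium and low arrays did not overlap for 3134 probe sets (13.1%), 1373 (5.72%) with medium above low and 1761 (7.34%) with medium below. With 1 probe set for each of 6765 gene symbols, 273 genes (4.04%) had an unadjusted p under 0.05 with medium higher and 447 (6.61%) with medium lower, 720 (10.6%) in all. Of the same genes, 356 (5.26%) lay above and 564 (8.34%) below without overlap, 920 (13.6%) in all. The medians were 0.0021 over all probe sets and -0.0155 over the genes. Every gene below is therefore given by its values, and none of them passed the adjusted test unless that is stated. With animal 34 left out, 92 probe sets passed, 35 of them higher in medium, and 4087 had an unadjusted p under 0.05, while 1584 did without animal 42. Without air animal 28, which enters the shared estimate of spread, 1 probe set passed. A fit of the same contrast over all 28 arrays, with the animal as a random block, passed 14. Against air, limma called 1 probe set in the medium lobes (0.00417%, with 3714 or 15.5% at an unadjusted p under 0.05) and 0 in the low lobes (0%, with 1461 or 6.09%). The count for medium minus air was 244 without animal 34, 1 without animal 28 and 0 without any of the other 7 caudal animals. Low minus air gave 1 call without animal 44. Both comparisons use the same 3 air arrays.

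The 1 probe set called against air belonged to THBS1, and it also had the smallest p between the doses. THBS1 encodes thrombospondin 1, a matrix glycoprotein released by activated platelets and injured tissue. Its signal was 626, 713 and 658 in medium animals 34, 41 and 42, against 249, 264 and 228 in low animals 31, 32 and 33, while the air animals had 147, 238 and 210.3. All 3 medium lobes, including that of animal 34, were above every low lobe and every air lobe. The medium minus low difference was 1.38 ± 0.16 (unadjusted p = 1.07e-05, adjusted p = 0.181), and the medium minus air difference was 1.69 ± 0.16 (adjusted p = 0.0458). Over 18 alternatives the medium minus low difference stayed between 1.22 and 1.43, with adjusted p from 0.0284 without air animal 28 to 0.617 without animal 42. Over 16 alternatives the medium minus air difference stayed between 1.51 and 1.82, with adjusted p from 0.00891 to 0.234, and 7 of them kept it past the threshold. With the log2 ratio of 3′ to 5′ control signal as a covariate, the medium minus air difference was 1.60 with an adjusted p of 0.122. That ratio was 1.90 in air animal 28, which had the lowest THBS1 signal, and 1.05 and 0.92 in air animals 29 and 44. The gene is covered by 5 probe sets. The brightest one had 1125, 1458 and 1289 in medium and 799.9, 1181 and 762 in low lobes, a difference of 0.51 ± 0.19 (adjusted p = 0.442) with low animal 32 above medium animal 34. The other 3 differed by 1.65 ± 0.65, 0.43 ± 0.18 and 0.43 ± 0.11. All 5 pointed the same way, by differing amounts.

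Under the rule for naming genes, the 15 genes with the smallest p in each direction follow. The selection used this contrast, so their separation is a description. Those higher in medium are given first, beginning with secreted and membrane proteins. PLAU, the urokinase that turns plasminogen into plasmin, had 424, 409 and 363 in medium and 272, 254 and 261 in low lobes (difference 0.57 ± 0.15, adjusted p = 0.347). TIMP3, a matrix-bound inhibitor of metalloproteinases, had 172, 202 and 365 in medium and 102, 70.5 and 116 in low lobes (difference 1.18 ± 0.25, adjusted p = 0.331). Its other probe sets differed by 0.79 ± 0.22 and, near 0 signal, by -0.03 ± 0.16. Animal 42 had the highest TIMP3 signal and animal 34 the highest PLAU signal, and in both genes every medium lobe was above every low lobe. TGFB3, a ligand of the transforming growth factor β family, had 211, 442 and 378 in medium and 161, 154 and 165 in low lobes (difference 0.97 ± 0.23), with animal 34 closest to the low animals. Without animal 34 its difference was 1.27 with an adjusted p of 0.0194, the lowest over 19 alternatives, which reached 0.698. HTRA4, a serine protease, differed by 0.84 ± 0.18, and BACE2, an aspartyl protease of the β-secretase family, by 0.53 ± 0.11.

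The remaining genes of that group follow. IFRD1, a transcriptional co-regulator, had the smallest p of the 15, with 452, 501 and 664 in medium and 217, 305 and 267 in low lobes (difference 0.99 ± 0.17, adjusted p = 0.264). Its second probe set differed by 1.03 ± 0.28, and animal 42 was the highest of the 6. MYC, a transcription factor for growth genes, had 293, 250.5 and 318 in medium and 205, 218 and 184 in low lobes (0.47 ± 0.12, adjusted p = 0.333). Its 3 medium values lay above the low ones and above the air values of 200.1, 183 and 208. SOCS3, which shuts off cytokine signalling through JAK and STAT, had 14.7, 12.8 and 12.4 in medium and 7.24, 3.90 and 7.44 in low lobes (0.40 ± 0.10). NAMPT, the salvage enzyme for NAD, differed by 0.45 ± 0.11, and UTP15, a factor for processing ribosomal RNA, by 0.58 ± 0.14. RASSF1, a Ras-binding tumor suppressor, differed by 0.53 ± 0.13, SLC12A4, a potassium chloride cotransporter, by 0.52 ± 0.13, and CRHR1, the receptor for corticotropin-releasing hormone, by 0.62 ± 0.15. A second CRHR1 probe set, dim in both groups, differed by -0.05 ± 0.21. C2CD2 differed by 1.16 ± 0.28 and TRNP1 by 0.89 ± 0.22.

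**Figure D1:**
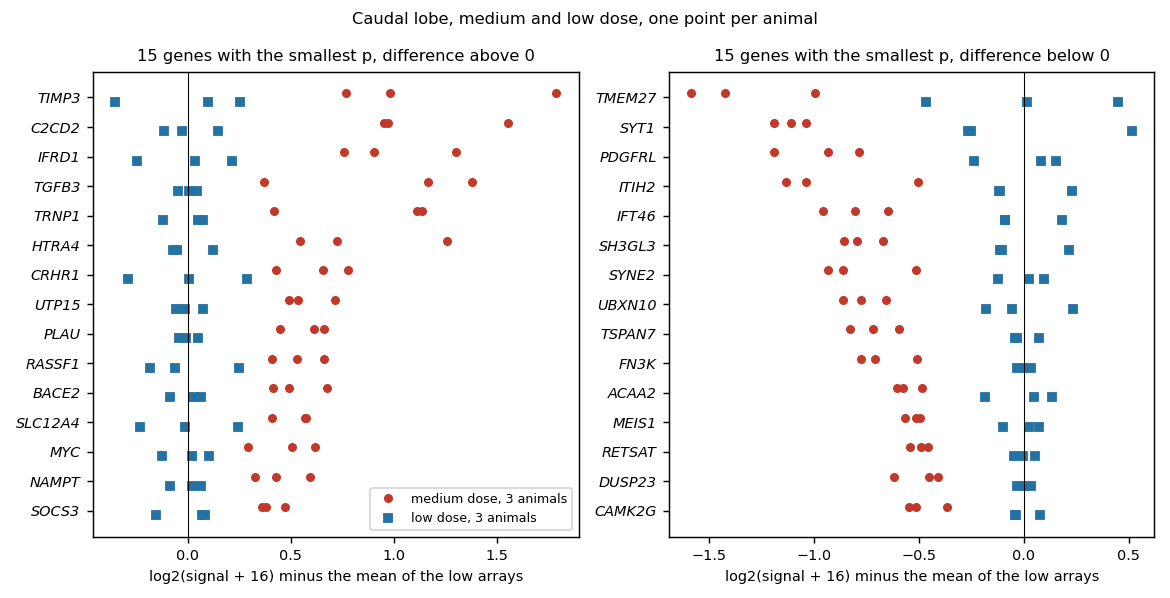
Each row is a gene and each point an animal, as log2(signal + 16) minus the mean of the low arrays; circles are the 3 medium and squares the 3 low animals. By the way these genes were chosen, the medium points lie to 1 side of the low points in all 30 rows; the spread among medium animals is widest for TIMP3 and TGFB3.

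The 15 genes lower in medium included parts of the cilium. IFT46, a subunit of the complex that carries cargo along the axoneme, had 157, 124 and 139 in medium and 291, 238 and 238 in low lobes (difference -0.80 ± 0.14, adjusted p = 0.278). UBXN10, an adaptor that binds that complex, had 192, 164 and 175 in medium and 272, 368 and 298 in low lobes (-0.76 ± 0.12, adjusted p = 0.251). The air animals had 257, 281 and 207 for IFT46 and 202, 184 and 202 for UBXN10. For IFT46 the low and air lobes overlapped, and every medium lobe was below every air lobe. For UBXN10 every low lobe was above every air lobe, and the medium lobes averaged below the air mean. In a fit over all 28 arrays with the animal as a random block, IFT46 had an adjusted p of 0.0467, the lowest over 19 alternatives, which reached 0.678. SH3GL3, an endophilin of endocytosis, had the smallest p of the 15, with 15.3, 19.6 and 16.7 in medium and 36.7, 49.9 and 36.5 in low lobes (-0.77 ± 0.12, adjusted p = 0.207).

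Membrane and secretory proteins made up much of the rest. TMEM27, known as collectrin, had 80.3, 47.9 and 55.3 in medium and 178, 123 and 245 in low lobes (-1.33 ± 0.24), the largest difference of the 15. SYT1, the synaptotagmin that senses calcium in vesicle release, had 8.96, 7.59 and 10.2 in medium and 61.0, 29.1 and 28.8 in low lobes (-1.11 ± 0.20). Its other probe set was near 0 signal in both groups. TSPAN7, a tetraspanin, differed by -0.71 ± 0.13. ITIH2, a heavy chain carried on hyaluronan, differed by -0.89 ± 0.17, and PDGFRL, a protein related to the receptor for platelet-derived growth factor, by -0.97 ± 0.19. A second PDGFRL probe set differed by -0.49 ± 0.13. SYNE2, which links the nuclear envelope to the cytoskeleton, differed by -0.77 ± 0.13, although its other 2 probe sets differed by -0.02 ± 0.13 and -0.33 ± 0.13.

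Enzymes and regulators completed the group. ACAA2, the last enzyme of mitochondrial fatty acid oxidation, had 185, 169 and 173 in medium and 232, 275 and 292 in low lobes (-0.55 ± 0.11, adjusted p = 0.305). RETSAT, which saturates retinol, differed by -0.50 ± 0.10, FN3K, which removes sugars from glycated proteins, by -0.66 ± 0.13, and DUSP23, a phosphatase, by -0.49 ± 0.09. CAMK2G, a calcium and calmodulin dependent kinase, differed by -0.47 ± 0.09, and MEIS1, a homeobox transcription factor, by -0.52 ± 0.11. Their standard errors were between 0.09 and 0.13, and the medium and low animals were apart in each by the choice of the genes. Second probe sets of DUSP23, CAMK2G and MEIS1 differed by -0.21 ± 0.10, -0.19 ± 0.13 and -0.48 ± 0.21.

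The gene lists give the same comparison by function. Over 39 lists, 22 medians were above 0 and 17 below, and 0 lists held a gene past the adjusted test. The list with the lowest median was that of ciliated cell markers. Of its 30 listed genes 10 were measured, all 10 were below 0, 7 had an unadjusted p under 0.05 (6.61% of all genes did in that direction) and 6 lay below the low group without overlap (8.34% of all genes). The median difference was -0.65, against -0.0155 over all genes. The mean log2 signal of the 10 genes was 6.80, 6.35 and 6.65 in medium animals 34, 41 and 42, against 6.90, 7.36 and 7.21 in low animals 31, 32 and 33, and 6.89, 6.63 and 6.65 in air animals 28, 29 and 44. Every medium lobe was below every low lobe. The list's median was -0.16 for medium minus air and 0.46 for low minus air, so the low lobes, and not the air lobes, carried the highest ciliated signal.

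SPA17, a sperm and cilium protein that binds protein kinase A anchors, had 87.7, 44.4 and 49.9 in medium and 112, 123 and 152 in low lobes (-0.95 ± 0.23, adjusted p = 0.333), with 103, 66.5 and 68.8 in air. ROPN1L, a component of the radial spoke, had 321, 250.1 and 313 in medium and 385, 513 and 534 in low lobes (-0.66 ± 0.17). TEKT1, a tektin that stabilizes the axoneme, had 28.028, 18.5 and 32.8 in medium and 54.1, 63.5 and 38.4 in low lobes (-0.68 ± 0.18). For SPA17, ROPN1L and TEKT1 the medium values were all below the low values. ENKUR, an axonemal calmodulin-binding protein, differed by -0.68 ± 0.21, LRRC23, another radial spoke protein, by -0.77 ± 0.28, CAPS, calcyphosine, by -0.64 ± 0.26, and CAPSL, its homolog, by -0.60 ± 0.21. CFAP126 differed by -0.37 ± 0.28 and TPPP3, a tubulin-binding protein, by -0.15 ± 0.21. The ciliated median stayed between -0.76 (without low animal 31) and -0.50 (without low animal 32) whichever animal was left out. Secretory and basal airway markers (15 genes measured) had a median of -0.15, which was -0.24 without low animal 31, -0.03 without low animal 32, -0.09 without animal 42 and -0.0008 without animal 41. Their part in the ciliated values was not tested.

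**Figure D2:**
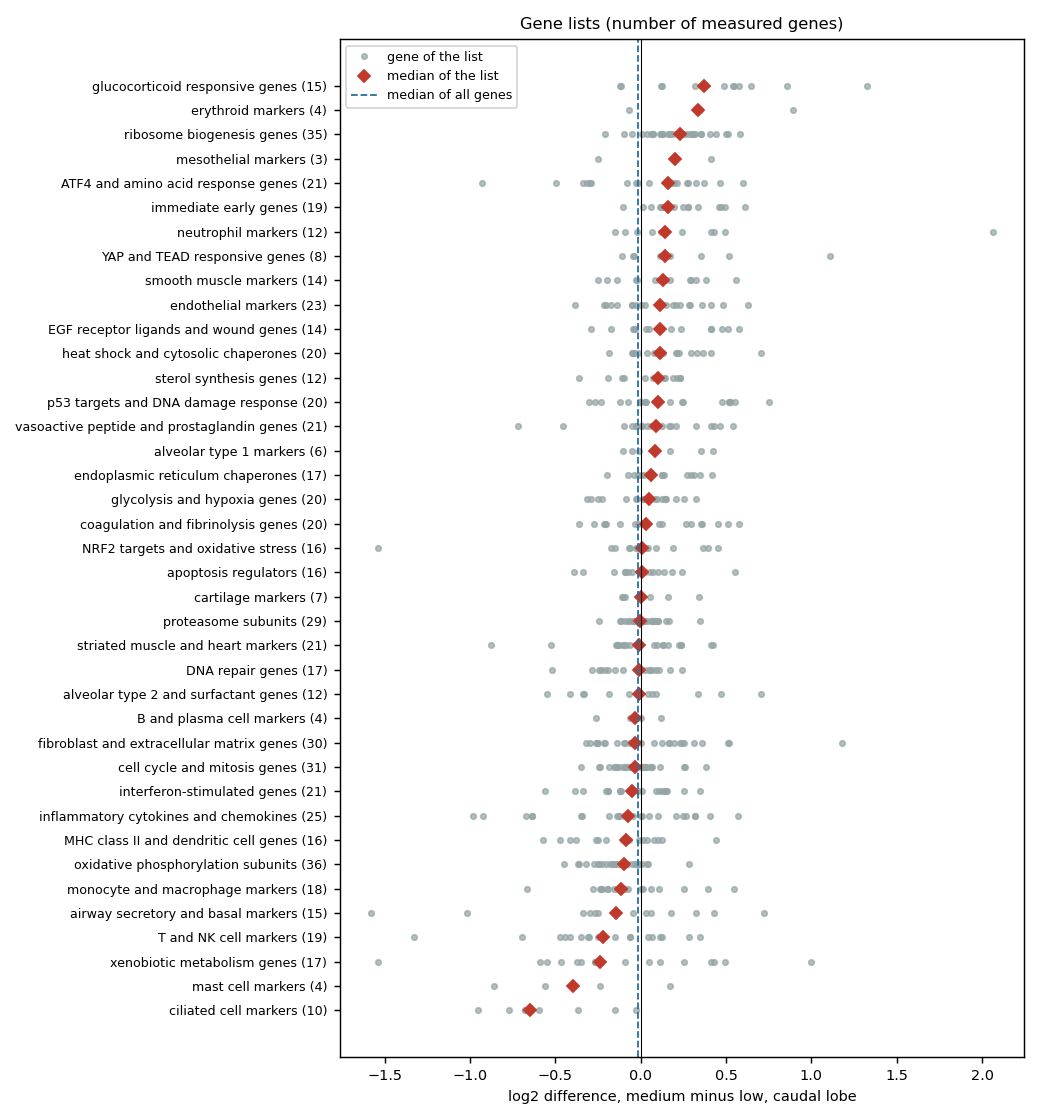
Each row is a gene list with its number of measured genes; grey points are the medium minus low log2 differences of its genes, the red diamond is their median, and the dashed line is the median of all genes at -0.0155. Ciliated cell markers sit lowest at -0.65 and glucocorticoid responsive genes highest at 0.37, and most lists lie close to the dashed line.

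The list with the highest median was that of glucocorticoid responsive genes, with a median difference of 0.37. Of 15 measured genes 13 were above 0 (46.4% of all genes), 4 had an unadjusted p under 0.05 (4.04% of all genes) and 3 lay above without overlap (5.26%). The mean log2 signal of the list was 8.12, 9.09 and 9.20 in medium animals 34, 41 and 42, against 8.50, 8.24 and 8.40 in the low animals and 8.39, 8.18 and 8.11 in the air animals. Animals 41 and 42 were the highest of the 9, while animal 34 lay below all 3 low animals. FKBP5, an immunophilin that binds the glucocorticoid receptor complex, had 104, 632 and 642 in the medium animals, against 132, 110.0 and 159.7 in the low animals and 145, 131 and 113 in the air animals. Its difference was 1.32 ± 0.56 (adjusted p = 0.487) over the 3 medium animals and 2.14 (adjusted p = 0.0165) without animal 34, when it passed the test. Over 19 alternatives its adjusted p ranged from 0.0165 to 0.843.

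KLF9, a transcription factor induced by glucocorticoids, had 377, 1293 and 1431 in medium and 673, 608 and 549 in low lobes (0.54 ± 0.41), and 1.14 without animal 34 (adjusted p = 0.0242, against up to 0.967 over 19 alternatives). A dimmer KLF9 probe set differed by 0.12 ± 0.14. PDK4, a kinase that holds back pyruvate oxidation, had 82.9, 853 and 837 in medium and 326, 93.7 and 313 in low lobes (0.86 ± 0.81). TSC22D3, the glucocorticoid-induced leucine zipper, had 573, 1492 and 1851 in medium and 983, 570.3 and 844 in low lobes (0.57 ± 0.40), while a dim second probe set differed by -0.27 ± 0.29. In each of these 3 genes animal 34 was the lowest medium animal and the groups overlapped. ANGPTL4, an inhibitor of lipoprotein lipase, was different in that its medium values of 219, 403 and 313 were all above the low values of 163, 195 and 209 (0.64 ± 0.22, adjusted p = 0.401). CEBPD, a transcription factor of the acute phase, differed by 0.49 ± 0.22, and NFKBIA, the inhibitor that holds NF-κB in the cytoplasm, by 0.32 ± 0.14. The list median was 0.72 without animal 34 and 0.21 without animal 42. The log2 ratio of 3′ to 5′ control signal was 0.61 in animal 34, against 1.13 and 0.94 in animals 41 and 42, and 0.63 to 1.35 in the low animals. Its part in the position of animal 34 was not tested.

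Immediate early genes answer a stimulus before any new protein is made, and they leaned the same way by small amounts. Of 19 measured, 18 were above 0 (46.4% of all genes) and 4 had an unadjusted p under 0.05 (4.04% of all genes with medium higher), with a median of 0.16. The mean log2 signal was 8.28, 8.42 and 8.34 in medium, against 8.14, 8.25 and 7.97 in low and 7.92, 7.61 and 7.98 in air lobes, and no medium lobe was below a low lobe. Besides MYC, the 4 were the AP-1 subunits FOSL1, with 36.0, 56.7 and 27.2 in medium and 15.3, 30.6 and 15.6 in low lobes (0.61 ± 0.21), and FOSL2 (0.46 ± 0.19), and the orphan receptor NR4A3 (0.49 ± 0.20). FOSL1 and NR4A3 each have dimmer probe sets that differed by 0.12 or less, and the FOSL1 values of animals 42 and 32 overlapped. The median was 0.27 without animal 34 and 0.24 without low animal 32.

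Among p53 targets and DNA damage genes the 3 GADD45 genes stood above the low group together. These small proteins are induced by growth arrest and DNA damage and bind stress kinases and cell cycle proteins. GADD45G had 306, 237 and 438 in medium and 183, 219 and 148 in low lobes (0.75 ± 0.21, adjusted p = 0.363). GADD45A had 377, 502 and 525 in medium and 364, 273 and 327 in low lobes (0.52 ± 0.15, adjusted p = 0.371). GADD45B had 331, 364 and 519 in medium and 323, 218 and 286 in low lobes (0.52 ± 0.19, adjusted p = 0.433). The medium and low animals did not overlap for any of the 3. Of the list's 20 measured genes, 7 were below 0, the lowest at -0.30 ± 0.16.

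CDKN1A, the p21 inhibitor of cyclin-dependent kinases, had 219.8, 444 and 279 in medium, 223, 225 and 170.5 in low and 179, 147 and 123 in air lobes. The medium minus low difference was 0.52 ± 0.24 (unadjusted p = 0.0550, adjusted p = 0.515), and animal 34 lay between the low animals. Over the list's 20 measured genes, 13 were above 0 (46.4% of all genes), 3 had an unadjusted p under 0.05 with medium higher (4.04%) and 4 lay above without overlap (5.26%). The median was 0.10. The mean log2 signal was 7.41, 7.64 and 7.63 in medium and 7.42, 7.34 and 7.38 in low lobes, with animal 34 inside the low range. The p53 median was -0.0009 without animal 41, 0.18 without animal 34 and 0.19 without low animal 33. DNA repair genes (17 measured) had a median of -0.01.

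Ribosome biogenesis genes, which make and assemble ribosomal RNA and its particles in the nucleolus and include many MYC targets, were above 0 in 32 of 35 cases (46.4% of all genes). The median was 0.23, 8 had an unadjusted p under 0.05 with medium higher (4.04% of all genes) and 6 lay above without overlap (5.26%). The mean log2 signal was 7.74, 7.35 and 7.51 in medium, against 7.26, 7.42 and 7.30 in low and 7.20, 7.20 and 7.32 in air lobes. In contrast to the glucocorticoid list, animal 34 was the highest, and animal 41 was below low animal 32. MRTO4, a factor of the large subunit, had 285, 206 and 195 in medium and 167, 182 and 139 in low lobes (0.44 ± 0.15). GNL3, nucleostemin, differed by 0.51 ± 0.21, and DDX21, a nucleolar helicase, by 0.28 ± 0.10. POLR1C, a subunit shared by RNA polymerases I and III, differed by 0.29 ± 0.10, and NOP56 and DKC1, core proteins of small nucleolar RNPs, by 0.31 ± 0.13 and 0.32 ± 0.14. The median was 0.14 without animal 34.

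**Figure D3:**
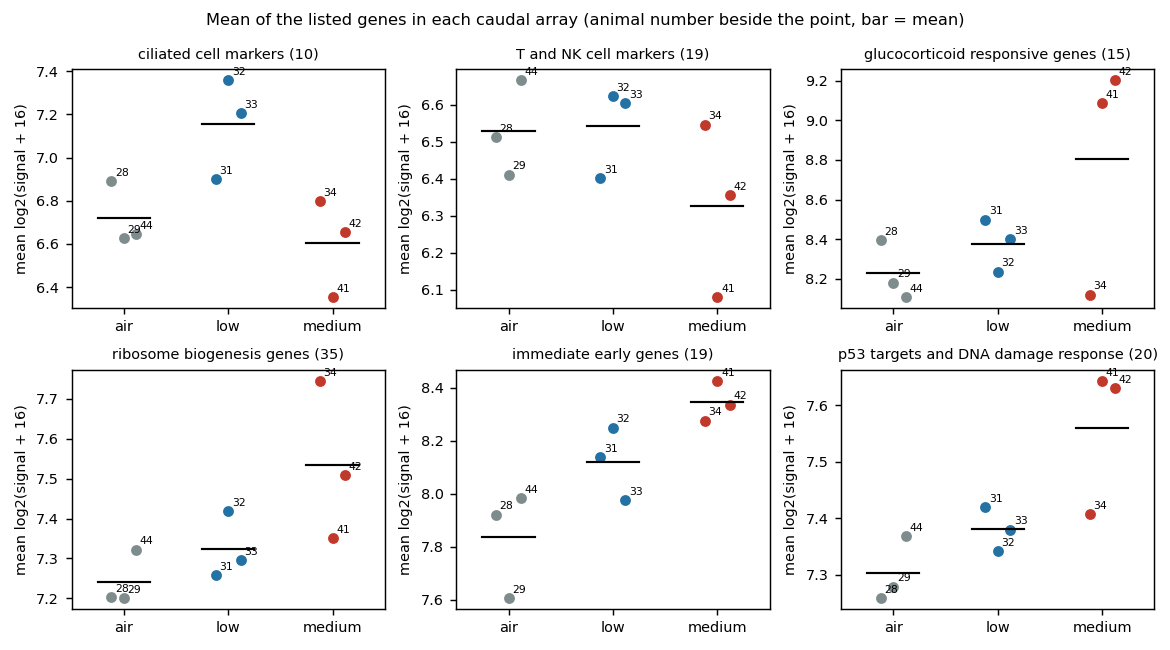
Each panel gives the mean log2(signal + 16) of a list's measured genes in each caudal array, with air, low and medium animals from left to right, the animal number beside each point and a bar at the group mean. Medium animals lie below low animals for ciliated markers. Animal 34 lies below the low animals for glucocorticoid responsive genes and within their range for p53 targets, and it is the highest for ribosome biogenesis genes.

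Markers of T and natural killer cells had a median difference of -0.22. Of 19 genes, 13 were below 0 and 6 above, against 46.4% of all genes above. There were 6 lower at an unadjusted p under 0.05 (6.61% of all genes) and 5 below without overlap (8.34%). KLRK1, the NKG2D receptor of natural killer and CD8 T cells, had 108, 56.0 and 43.9 in medium and 126, 241 and 216 in low lobes (-1.33 ± 0.33, adjusted p = 0.333). GNLY, the granule protein granulysin, had 312, 177 and 248 in medium and 268, 541 and 431 in low lobes (-0.70 ± 0.27). All 3 medium animals were below the low animals for KLRK1, whereas for GNLY animal 34 was above low animal 31. The T cell receptor chains CD3G and CD3E differed by -0.48 ± 0.17 and -0.31 ± 0.12, the kinase LCK by -0.45 ± 0.18 and the inhibitory receptor CTLA4 by -0.25 ± 0.11. The 6 genes above 0 included the cytotoxic granule genes PRF1 (0.35 ± 0.26) and GZMH (0.285 ± 0.185). The list's mean log2 signal was 6.55, 6.08 and 6.35 in medium and 6.40, 6.62 and 6.60 in low lobes, so animal 34 lay inside the low range. The list's median was -0.08 without animal 41, -0.13 without low animal 33 and -0.34 without animal 34.

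The list of MHC class II and dendritic cell genes, which also holds costimulators such as CD80 and CD86, had a median of -0.09 over 16 genes. The chaperone chains SLA-DMA and SLA-DMB, which load peptide onto class II molecules, had differences of -0.57 ± 0.20 and -0.47 ± 0.19. Without animal 34 these were -0.84 (adjusted p = 0.0265) and -0.72 (adjusted p = 0.0486), past the threshold, while over 19 alternatives their adjusted p reached 0.783 and 0.815. SLA-DMA had 830.2, 494 and 443 in medium and 828, 871 and 851 in low lobes, so animal 34 was level with the low animals. A second SLA-DMA probe set differed by -0.10 ± 0.11. SLA-DRB1 differed by -0.38 ± 0.15 and SLA-DOA, a modulator of peptide loading, by 0.44 ± 0.17. Other SLA-DRB1 probe sets, dim in both groups, differed by 0.02 ± 0.12 and -0.07 ± 0.14. Mast cell markers rested on 4 genes: MCT7, a tryptase, had 93.4, 85.1 and 111 in medium and 246, 118 and 220.0 in low lobes (-0.86 ± 0.30), and MS4A2, a chain of the IgE receptor, differed by -0.56 ± 0.18. Every medium lobe was below every low lobe for MCT7 and MS4A2. The growth factor receptor KIT differed by -0.24 ± 0.50 and the transcription factor GATA2 by 0.17 ± 0.23, and both overlapped. The median of the 4 was -0.40, with -0.59 without animal 34 and -0.20 without animal 41.

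The list of 25 cytokines and chemokines had a median of -0.08, with 3 genes higher (4.04% of all genes) and 4 lower (6.61%) at an unadjusted p under 0.05. CXCL8, the main neutrophil chemokine, had 61.1, 87.0 and 124 in medium, 55.4, 63.2 and 44.002 in low and 97.7, 65.0 and 48.8 in air lobes (0.57 ± 0.25 for medium minus low, adjusted p = 0.501). IL6 had 25.9, 26.6 and 18.2 in medium and 21.5, 22.5 and 25.6 in low lobes (0.01 ± 0.11), and IL1B had 52.5, 68.1 and 56.7 in medium and 62.4, 65.9 and 56.0 in low lobes (-0.05 ± 0.14). For CXCL8 animal 34 lay within the low range, and for IL6 and IL1B the difference was smaller than its standard error. CCL8, a monocyte chemokine, had 117, 81.4 and 50.5 in medium and 136, 139.8 and 232 in low lobes (-0.92 ± 0.29, adjusted p = 0.383). CXCL12, which retains leukocytes through CXCR4, differed by -0.64 ± 0.26, and CXCL9, an interferon-induced T cell chemokine, by -0.98 ± 0.45. The neutrophil list (12 genes) had a median of 0.14, with 9 genes above 0 (46.4% of all genes) and 3 below. In that list 2 genes were higher at an unadjusted p under 0.05 (4.04% of all genes), and 3 lay above without overlap (5.26%). OLFM4, a neutrophil granule protein, had 669, 218 and 249.6 in medium and 13.1, 76.1 and 200.0 in low lobes (2.07 ± 0.90), with low animal 33 close below medium animal 41. Its other probe set differed by 1.33 ± 0.89. NCF1, a subunit of the phagocyte oxidase, differed by 0.41 ± 0.15, though its other probe set differed by -0.06 ± 0.24. The mean NCF1 signal was 204 in medium, 151 in low and 253 in air lobes, so the air mean was the highest.

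Enzymes that handle foreign compounds had a median of -0.24 over 17 genes, 3 lower (6.61% of all genes) and 1 higher (4.04%) at an unadjusted p under 0.05. That median was -0.12 without low animal 31, -0.10 without animal 34 and -0.08 without animal 41. GSTA1, a glutathione transferase, had 35.0, 9.81 and 4.58 in medium and 80.3, 69.0 and 65.2 in low lobes (-1.54 ± 0.39, adjusted p = 0.340), with every medium animal below every low animal. Its other 2 probe sets differed by -0.92 ± 0.41 and -0.15 ± 0.13. EPHX1, the microsomal epoxide hydrolase, had 514, 494 and 525 in medium and 795, 694 and 654 in low lobes (-0.47 ± 0.16), and SULT1E1, an estrogen sulfotransferase, differed by -0.55 ± 0.20. CYP3A29, a pig cytochrome P450, differed by 1.00 ± 0.40. HMOX1, heme oxygenase 1, had 1371, 1030.3 and 1064 in medium and 1139, 683 and 836 in low lobes (0.40 ± 0.21, adjusted p = 0.573), and the NRF2 list of 16 genes had a median of 0.01. Subunits of oxidative phosphorylation had a median of -0.10 over 36 genes, with 4 above 0 (46.4% of all genes) and 32 below. At an unadjusted p under 0.05, 3 were lower (6.61% of all genes) and 1 higher (4.04%). Their mean log2 signal was 9.71, 9.41 and 9.45 in medium animals 34, 41 and 42, against 9.60, 9.65 and 9.69 in low animals, so animal 34 was above every low animal and animals 41 and 42 below. The median was -0.20 without animal 34 and -0.06 without animal 41. ATP5J, a coupling factor of ATP synthase, had the smallest p of the list and lay above without overlap (0.28 ± 0.09). NDUFS6, a subunit of complex I, differed by -0.45 ± 0.17, with animal 34 within the range of the low animals, and its dimmer probe set by 0.39 ± 0.13 the other way.

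SFTPC, the surfactant protein that marks alveolar type 2 cells, had 2936, 3084 and 3184 in medium, 2892, 2856 and 2913 in low and 2864, 2592 and 3055 in air lobes, a medium minus low difference of 0.09 ± 0.10 (adjusted p = 0.819). These signals were among the brightest on the arrays. The type 2 list had a median of -0.01 (12 genes), the type 1 list 0.08 (6 genes) and the endothelial list 0.11 (23 genes). Single alveolar genes differed more. CEBPA, a transcription factor of type 2 cells, had 35.6, 16.4 and 25.029 in medium and 41.1, 40.6 and 50.4 in low lobes (-0.55 ± 0.17), although its dimmer probe set differed by -0.10 ± 0.15. PDPN, podoplanin of type 1 cells, had 1309, 1893 and 1593 in medium and 1211, 1297 and 1190.0 in low lobes (0.36 ± 0.14). The groups were apart for CEBPA and PDPN and overlapped for AGER, the type 1 receptor for glycated proteins (0.42 ± 0.29). Markers of striated muscle and of cartilage, which could come with neighboring tissue, averaged 5.15 to 5.22 and 4.90 to 5.18 in medium, against 5.11 to 5.31 and 4.83 to 5.17 in low lobes, on the log2(signal + 16) scale, where a signal of 0 gives 4. Most of these genes were dim, but the troponin TNNI2 had 116, 83.3 and 87.9 in medium and 137, 211 and 226 in low lobes (-0.88 ± 0.20, adjusted p = 0.332), and TNNI3 had 90.5, 91.7 and 125 in medium and 141, 179 and 144 in low lobes (-0.53 ± 0.29). Both lay below the low group without overlap, the only 2 of the 21 muscle genes to do so (8.34% of all genes). Above the low group without overlap lay 1 muscle gene (5.26% of all genes). The medians of the muscle and cartilage lists were -0.01 (21 genes) and 0.004 (7 genes).

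The dose comparison was then set against the same comparison in the apical and median lobes, with the animal as a block over all 28 arrays. limma called 0 of 23999 probe sets (0%) for a difference between the caudal value and the mean of the other lobes. The lowest adjusted p was 0.240, and 2090 probe sets (8.71%) had an unadjusted p under 0.05. The lobes share most of their animals. The lobe difference comes from the fit with the animal as a block, and the value of each lobe from a separate fit of that lobe. Medium animals differ between lobes, so the lobe difference need not equal the gap between the listed values. Of the 30 genes chosen in the caudal lobe, 4 had an unadjusted p under 0.05 for the lobe difference and 0 an adjusted one. These genes were chosen by their caudal medium minus low values, which also enter the lobe difference. That choice favors a larger caudal value, so their lobe differences and p-values are a description. For TIMP3, medium minus low was 1.18 in the caudal, -0.18 ± 0.34 in the apical and 0.19 ± 0.34 in the median lobe, a lobe difference of 0.93 ± 0.25 (unadjusted p = 0.00211, adjusted p = 0.340). TGFB3 was 0.97 in the caudal, 0.18 ± 0.18 in the apical and 0.62 ± 0.19 in the median lobe. IFRD1, in contrast, was 0.99 in the caudal, 0.64 ± 0.32 in the apical and 1.11 ± 0.27 in the median lobe.

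The 6 genes with the smallest p for that lobe difference were PM20D2 (0.58 ± 0.11), ATXN2 (0.61 ± 0.12), VSNL1 (-0.64 ± 0.13), PRKAR2A (1.11 ± 0.23), BSP1 (0.76 ± 0.16) and NEK2 (-0.68 ± 0.16), with adjusted p from 0.240 to 0.301. PRKAR2A, a regulatory subunit of protein kinase A, had a medium minus low value of 0.68 in the caudal, -0.59 ± 0.30 in the apical and -0.63 ± 0.26 in the median lobe. Among the lists, the ciliated median was -0.65 in the caudal, -0.39 in the apical and -0.47 in the median lobe. The glucocorticoid median was 0.37, 0.26 and 0.31 in the same lobes, and the lymphocyte median -0.22, -0.17 and -0.49.

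**Figure D4:**
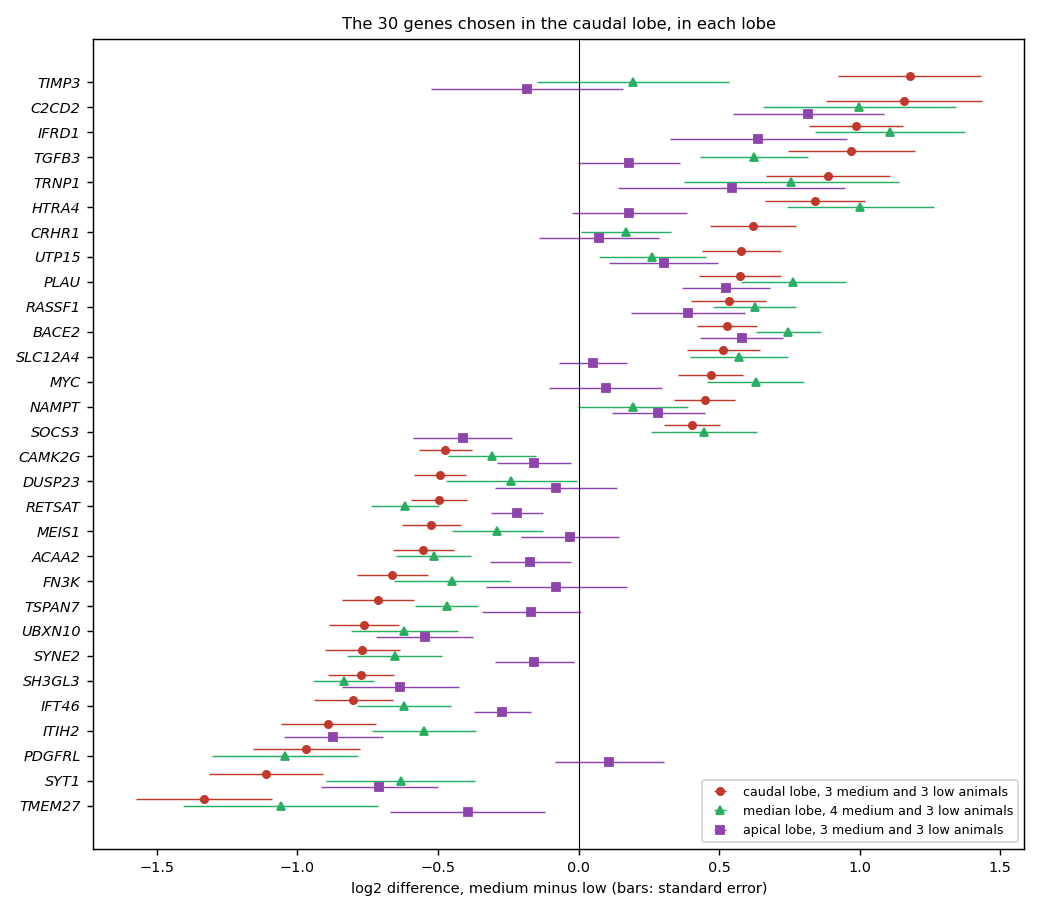
Each row is 1 of the 30 genes chosen in the caudal lobe; points are the medium minus low log2 difference in the caudal, median and apical lobes with standard errors. TIMP3 lies at 1.18 in the caudal, 0.19 ± 0.34 in the median and -0.18 ± 0.34 in the apical lobe. The choice of genes used the caudal values, which favors a larger difference in that lobe.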

How the data were processed

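RNA from left lung lobes was measured on the Affymetrix porcine array. Per the labels' protocols, tissue was kept in RNAlater and total RNA was labelled with biotin. The authors deposited 1 column of linear signal intensity per array. Each of the 9 caudal arrays had a trimmed mean signal of 150.0 (2% cut from each end). The software and genome build behind these intensity values are not given in the sources used here. Of 24123 probe sets, 124 controls were left out and 23999 tested without a brightness filter. The supplied annotation gave 1 symbol for 10069 of these (6765 genes, 2261 with several probe sets), several for 198 and none for 13732. The symbols of 9961 matched RefSeq (Sscrofa11.1) and 0 changed.

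Intensity plus 16 was taken to log2 and quantile normalized over 28 arrays (R 4.3.3). limma 3.58.1 was fitted to the 9 caudal arrays with 3 exposure groups, with Benjamini-Hochberg adjustment over 23999 probe sets, and a call was an adjusted p under 0.05. The contrast between lobes used all 28 arrays with the animal as a block. The fit was run on simulated data with independent normal noise, known changes and no array set apart from its group. That run cannot show how an array such as that of animal 34 affects the calls. The text names the 15 genes of each direction with the smallest p, up to 4 genes per list with the smallest p, 6 fixed genes, the 6 genes with the smallest p between lobes, and genes added after their values were seen (KLF9, PDK4, TSC22D3, CXCL9, LCK, CTLA4, PRF1, GZMH, GNL3, NOP56, DKC1, LRRC23, CAPS, CAPSL, CFAP126, TPPP3, BPIFA1, PHGDH and the THBS1 probe set called against air). The comparison, members and lists were chosen with earlier results of these data known. The number of arrays limits the precision, and separate animals are the replicates.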

Additional observations from a re-analysis of the deposited data

How the results depend on the processing

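Between the doses in the caudal lobe, the number of probe sets called was 0 under 9 alternatives to scaling, offset, filter, probe set choice, variance model, samples and covariate, and 14 with all 28 arrays and the animal as a random replicate block. It ranged from 0 to 92 as single animals were left out. At an unadjusted p under 0.05 there were 1385 after dimmer probe sets were left out, which tests fewer, and 1584 to 4087 as single animals were left out. Medium minus air gave 0 calls with the RNA index as a covariate, with the mean of a gene's probe sets and with an offset of 1, 5 without the dimmer probe sets, 4 with a trended robust variance, and 0 to 244 as animals were left out. Low minus air gave 0 to 1.

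Medium and low animals carry different numbers, so no pairing applies between the doses. Lobes pair by animal. For the lobe contrast, 0 probe sets were called with no replicate block and 1 with the animal as a random replicate block.

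Of 2049 values of a named gene under an alternative, 9 turned direction, in IL6, IL1B, GATA2 and KIT. PRF1 and GZMH were not among the genes followed there. IL6 was -0.0523 in the fit with the random replicate block, and between -0.0493 and 0.1102 as single animals were left out. IL1B was 0.0368 as the mean of its probe sets, and between -0.1323 and 0.0156 as single animals were left out. On leaving out single animals GATA2 was between -0.0259 and 0.3908 and KIT between -0.5113 and 0.0594. The RNA index difference was 0.0302 for GAPDH alone. The cause was not tested. Of 39 list medians, between 0 and 9 changed sign under any setting, most often without animal 41. The 3 arrays per group limit the size of difference that can pass the test.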

Other observations

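Of the 30 probe sets with the smallest p between the doses, 18 had no single gene symbol in the supplied annotation, and 23 of the 30 were lower in medium. The 15 secretory and basal airway markers went in both directions, 6 above 0 (46.4% of all genes) and 9 below. TFF3, a trefoil peptide of mucous cells, had 820.5, 684 and 656 in medium and 1335, 1582 and 1496 in low lobes (-1.02 ± 0.33, adjusted p = 0.390). BPIFA1, a secreted airway defense protein, had 261, 67.4 and 102 in medium and 159, 736 and 538 in low lobes (-1.58 ± 0.92). KRT18, a keratin of simple epithelium, had 374, 385 and 584 in medium and 178, 398 and 242 in low lobes (0.72 ± 0.26). The groups overlapped for BPIFA1 and KRT18 and were apart for TFF3.

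Genes that respond to YAP and TEAD had a mean log2 signal of 9.51, 9.47 and 9.28 in medium and 9.19, 9.31 and 8.97 in low lobes, with 8.71, 8.68 and 8.66 in air lobes (8 genes). Their medians were 0.58 for medium minus air and 0.53 for low minus air, with shared air arrays, and 0.14 for medium minus low, which was 0.003 without low animal 33 and 0.25 without low animal 32. ANKRD1, an ankyrin repeat protein of that list, had 1024, 1228 and 553 in medium, against 274, 780.2 and 303 in low and 130.3, 257 and 139.7 in air lobes (1.11 ± 0.43 for medium minus low, adjusted p = 0.465). Amino acid transporters of the ATF4 list lay above 0, with SLC7A1 at 0.46 ± 0.16 and SLC1A5 at 0.37 ± 0.13, while PHGDH, the first enzyme of serine synthesis, was at -0.93 ± 0.45. The median of that list was 0.16, and its mean was 0.02. The median was 0.04 without low animal 31, 0.08 without low animal 33 and 0.07 without animal 42.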
